A study of Mus musculus with 4 samples.

Results

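Of the mouse miR-30 family, 6 miRNA genes, Mir30a, Mir30b, Mir30c-1, Mir30c-2, Mir30d and Mir30e, were examined here in AGO2 eCLIP of newborn brain. Regions of the deposited files that overlapped a miR-30 gene (mm10, GENCODE M21) by 1 base or more on the same strand were taken. They numbered 14 of 46860 in the wild-type IP, 14 of 86106 in the IP labelled Fmr1 knockout and 14 of 46862 in the authors' deposited table that sets the IPs against each other. The annotation holds 2202 miRNA genes, and 642, 637 and 644 regions of the 3 files lay on them.

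Flash-frozen whole brains of newborn (postnatal day 0) mice of the C57BL/6 background, either wild type or FMR1 ko, were used, and AGO2 was immunoprecipitated (IP) with the antibody EAG009. The labels name an IP and an input for each genotype, 4 libraries in all, and give neither the knockout allele nor the number of brains. The study set AGO2 binding with and without FMRP, the RNA-binding protein encoded by Fmr1, side by side. Each genotype had 1 IP library, so no difference below has a replicate check, and every interval is an exact 95% interval that covers counting error only. Because the label of the second library was not checked independently, it is called the knockout-labelled library. In bulk tissue, fewer cells that make a miRNA and less of it per cell cannot be told apart.

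A miRNA gene is transcribed into a hairpin that DROSHA and DICER cut into a short duplex. One strand, from the 5′ arm (5p) or the 3′ arm (3p), is kept by an Argonaute protein and pairs with target mRNAs through its seed, bases 2 to 8. Crosslinking and sequencing of AGO2 therefore recovers the loaded miRNA itself along with its targets. The miR-30 family is widely expressed, including in brain, and is known for targets in differentiation, cell fate and, in neurons, Bdnf and Sema3a.

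RefSeq mature sequences (GRCm38.p6) were matched by symbol for 4 of the 6 genes, Mir30a, Mir30c-1, Mir30c-2 and Mir30e. The sequences are shown because the results turn on which arm was bound and on which genes give the same RNA; the seed is in capitals. The 5p arms share the seed GUAAACA.
miR-30a-5p: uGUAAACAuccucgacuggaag
miR-30e-5p: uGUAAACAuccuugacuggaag
miR-30c-5p: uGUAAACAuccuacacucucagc
The 3p arms fall into 2 seed groups, UUUCAGU for Mir30a and Mir30e and UGGGAGA for the Mir30c genes.
miR-30a-3p: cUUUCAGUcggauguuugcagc
miR-30e-3p: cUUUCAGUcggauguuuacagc
miR-30c-1-3p: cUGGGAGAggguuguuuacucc
miR-30c-2-3p: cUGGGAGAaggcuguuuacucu
Counted from the 5′ end, miR-30a-5p and miR-30e-5p differ by 1 base, C13U, and their 3p arms by 1 base, G18A. Mir30c-1 and Mir30c-2 give the same 23 bases of miR-30c-5p. Reads of those bases alone cannot be assigned to either gene, and how reads with several matches were treated is not given in the sources used here. With the mature bases in capitals, the bases before them in the hairpins differ.
Mir30c-1: uagugugUGUAAACAUCCUACACUCUCAGC
Mir30c-2: cagauauUGUAAACAUCCUACACUCUCAGC
The hairpins share no base directly before the mature sequence and 5 bases after it, a common stretch of 28 bases.

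The genes lie in 3 pairs. Mir30a (ENSMUSG00000065405.3, chr1:23272269-23272339, plus strand, in no annotated host gene) and Mir30c-2 (ENSMUSG00000065567.1, chr1:23291701-23291784, plus strand, in an exon of the lincRNA Gm27028) are 19361 bases apart. Mir30c-1 (ENSMUSG00000065490.1, chr4:120769534-120769622, minus strand) and Mir30e (ENSMUSG00000065409.1, chr4:120772606-120772697, minus strand) are 2983 bases apart in introns of Nfyc, which encodes a subunit of the CCAAT-binding factor NF-Y. Mir30b (ENSMUSG00000065476.2, chr15:68337415-68337510, minus strand, in no annotated host gene) and Mir30d (ENSMUSG00000065437.1, chr15:68341208-68341289, minus strand, in an exon of the lincRNA Gm20732) are 3697 bases apart. Within 3000 bases on either side of each gene, none of the 3 files listed a same-strand region outside the miRNA genes. In the wild-type file the hosts had no region of their own. The knockout-labelled file listed 2 on Nfyc and 2 on Gm20732, none enriched, and the best of each had 3 IP reads against a listed input of 1. Mir30f, antisense to Mir30e, had no region.

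All 6 genes had AGO2 regions over the 5′ arm in both libraries. At the genes with a RefSeq sequence, the joined regions covered all bases of the 5p arm. At Mir30a they were the mature sequence itself, chr1:23272274-23272295, 22 bases with none to spare, in both libraries. At Mir30e they spanned 27 bases in each library, 1 before and 4 after the arm. At Mir30c-2 they spanned 27 bases in wild type against 26 in the knockout-labelled library, starting 2 bases before the arm in each. The region at Mir30c-1 was the longest, 34 bases in wild type against 31 in the knockout-labelled library, with 3 bases before the arm in each and 8 or 5 after it. At both Mir30c genes the regions thus reached bases that differ between the hairpins. Mir30b regions covered bases 21 to 41 of the gene in wild type against 21 to 42 in the knockout-labelled library, and those of Mir30d bases 11 to 36 and 12 to 33.

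**Figure D1:**
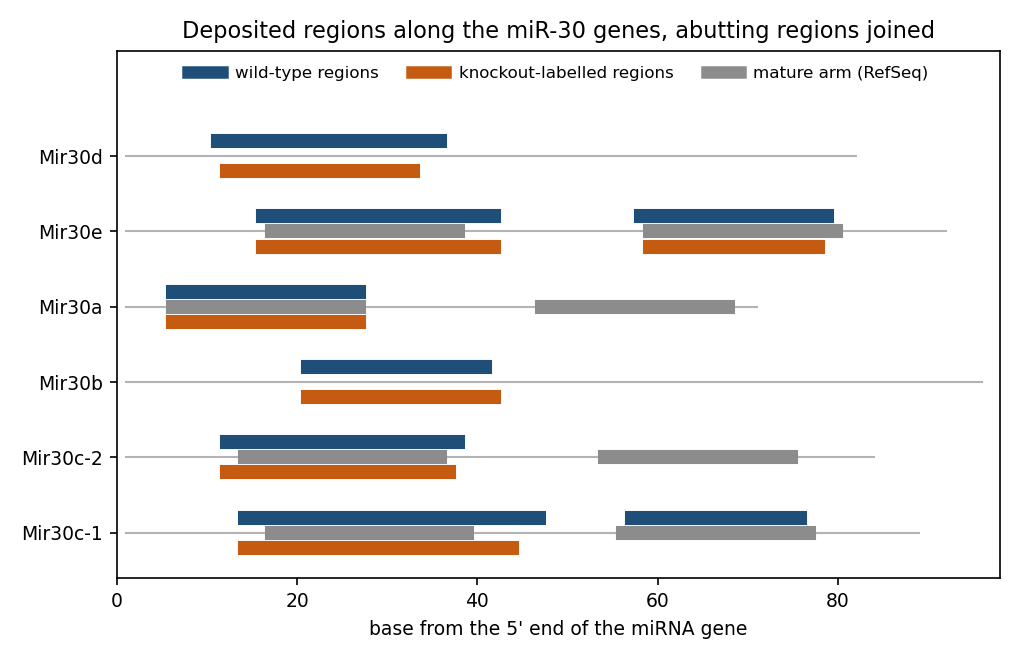
Deposited regions along each miR-30 gene, in bases from its 5′ end, with abutting regions joined (wild type blue, knockout-labelled orange); grey bars are the RefSeq arms of the 4 genes matched. Every gene has a bar on the 5′ side in both libraries, and only Mir30e and Mir30c-1 have one on the 3′ side.

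The 3p arm gave a region at Mir30e in both libraries and at Mir30c-1 in wild type. At Mir30e the wild-type IP had 511 reads on the 5p site and 42 on the 3p site, and the knockout-labelled IP had 432 and 34 at the same places. The 3p share was thus 7.59% (5.53 to 10.1) in wild type against 7.30% (5.11 to 10.05) in the knockout-labelled library, with intervals that overlap almost wholly. Mir30c-1 had 32 reads on 5p and 5 on 3p in wild type, a 3p share of 13.5% (4.54 to 28.8). In the knockout-labelled IP it had 9 and 2 reads, a share of 18.2% (2.28 to 51.8), too few to tell from wild type. No region on the 3′ side was listed at Mir30a, Mir30b, Mir30c-2 or Mir30d. The 3p arm of Mir30a differs from that of Mir30e at 1 base.

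Enrichment over input was large at every gene. The authors give each region a log2 of read density in IP over input, scaled to library totals, and a -log10 p of at most 400; a region was called enriched where both were 3 or more. By this rule 14 of 14 miR-30 regions were enriched in wild type, where 24.1% of all regions and 90.6% of the 628 regions at other miRNA genes were. In the knockout-labelled library it was again 14 of 14, against 3.08% of all regions and 76.6% of the 623 at other miRNA genes. The shares of other miRNA genes were high too, so the counts do not set miR-30 apart from them. The value nearest the limit was that of Mir30c-1 in the knockout-labelled library, a -log10 p of 3.35 from 9 IP reads against a listed input of 1. Abutting regions often carry the same value and the same number of reads, and counted once they leave 8 and 7 sites.

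Reads behind each value were recovered from the scores, and each site had a listed input of only 1 or 2. Whether a listed input holds an added read was not tested, so only the lower 95% limit, taken with the listed input, is given after each value. Mir30e had the highest value, at a log2 over input of 11.66 (lower limit 9.18) in wild type against 9.69 (7.21) in the knockout-labelled library. Mir30a had 11.15 (8.66) and 9.43 (6.94), Mir30d 10.98 (9.12) and 9.33 (7.47), and Mir30b 10.70 (8.21) and 8.60 (6.11). Mir30c-2 stood at 8.95 (6.43) and 5.43 (3.49), and Mir30c-1 at 7.66 (5.08) and 4.11 (1.26). The order of the genes was the same in both libraries, but each value lies above the lower limit of the gene ranked before it, except that of Mir30c-2 in the knockout-labelled library, so most steps are not resolved. The order also rests on taking each gene's region of highest -log10 p. Where the longest region was taken, which at Mir30e is the 3p one, Mir30e stood at 8.06 in wild type, below Mir30c-2, and at 6.03 in the other library, below Mir30a, Mir30d and Mir30b. With the median over a gene's regions, Mir30c-1 stood at 4.99 in wild type. The difference of wild type minus knockout-labelled log2 over input was 1.66 to 2.09 at Mir30a, Mir30b, Mir30d and Mir30e. It was 3.55 at Mir30c-1 and 3.52 at Mir30c-2. Mir30a had a difference of 1.72 from 358 and 359 IP reads and a listed input of 1 in each. Near-equal reads thus already give such a difference here, where the inputs were 6.34 and 1.92 times as deep as the IPs. At Mir30c-2 the listed inputs differed, at 1 in wild type and 2 in the other.

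Among miRNA genes with a region, the first 4 genes ranked high and the Mir30c genes in the middle. By log2 over input in wild type, Mir30e was 17th of 312, Mir30a 24th, Mir30d 31st and Mir30b 37th, with Mir30c-2 at rank 113 and Mir30c-1 at 176. In the knockout-labelled library the ranks of 339 were 15 for Mir30e, 24 for Mir30a, 27 for Mir30d, 38 for Mir30b, 182 for Mir30c-2 and 223 for Mir30c-1. The family median was 10.84 in wild type, against 8.07 for the 306 other miRNA genes. Of the families set beside it, 3 miR-125 genes had a slightly higher median of 10.88. The medians were 10.66 for 3 miR-124 genes, 10.30 for 9 let-7 genes and 7.62 for 3 miR-9 genes. In the knockout-labelled library the miR-30 median was 8.97, against 5.75 for the other miRNA genes. There let-7 had 8.21, miR-125 7.71, miR-124 7.70 and miR-9 5.03. With 1 library each, these medians are a description. Closest to the family median in both libraries, by Euclidean distance over the 2 log2 values among 280 miRNA genes, were Mir153 (distance 0.15), Mir17 (0.19), Mir139 (0.19), Mir154 (0.23) and Mir381 (0.26).

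**Figure D2:**
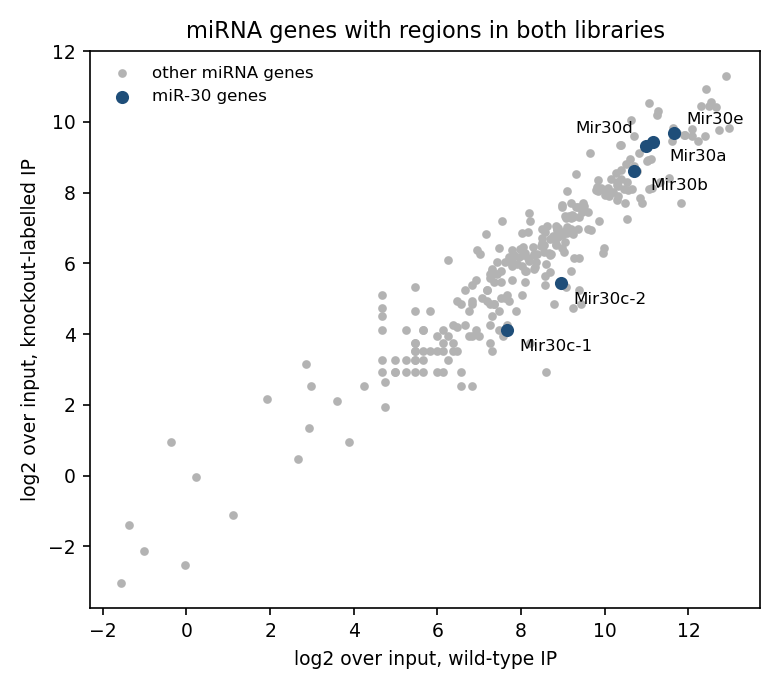
Authors' log2 over input of each miRNA gene with a region in both libraries (286 genes, the region with the highest -log10 p), wild type on the x axis and knockout-labelled on the y axis. Mir30a, Mir30b, Mir30d and Mir30e lie at the upper end, and Mir30c-2 and Mir30c-1 lie lower on both axes.

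Reads of the IP alone gave a sharper order. On the regions of the wild-type file, Mir30d had 638 wild-type and 669 knockout-labelled IP reads, Mir30e 511 and 432, and Mir30a 358 and 359. Mir30b had 262 and 203, Mir30c-2 78 and 45, and Mir30c-1 32 and 9. Numbers of reads were nearly equal for Mir30a and Mir30d and higher in wild type for the others, most so for Mir30c-1.

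Per base of the site, Mir30d had the highest level, 24.5 reads (22.7 to 26.5) in wild type against 25.7 (23.8 to 27.8) in the knockout-labelled library. Mir30e and Mir30a followed with 18.9 (17.3 to 20.6) and 16.3 (14.6 to 18.0) in wild type, and 16 (14.5 to 17.6) and 16.3 (14.7 to 18.1) in the other, and their intervals overlap in each. These levels divide the reads of 1 region by the length of the joined site, so a longer site lowers them. As reads alone, Mir30e with 511 (468 to 557) and Mir30a with 358 (322 to 397) do not overlap in wild type. In the knockout-labelled library their 432 (392 to 475) and 359 (323 to 398) do. Mir30b had 12.5 (11.01 to 14.1) and 9.67 (8.38 to 11.1), Mir30c-2 2.89 (2.28 to 3.61) and 1.67 (1.22 to 2.23), and Mir30c-1 0.941 (0.644 to 1.33) and 0.265 (0.121 to 0.502). Below Mir30a, each step down exceeded the counting intervals in both libraries. For the Mir30c genes these levels count only reads that were placed at 1 locus or the other, by a rule not given here.

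**Figure D3:**
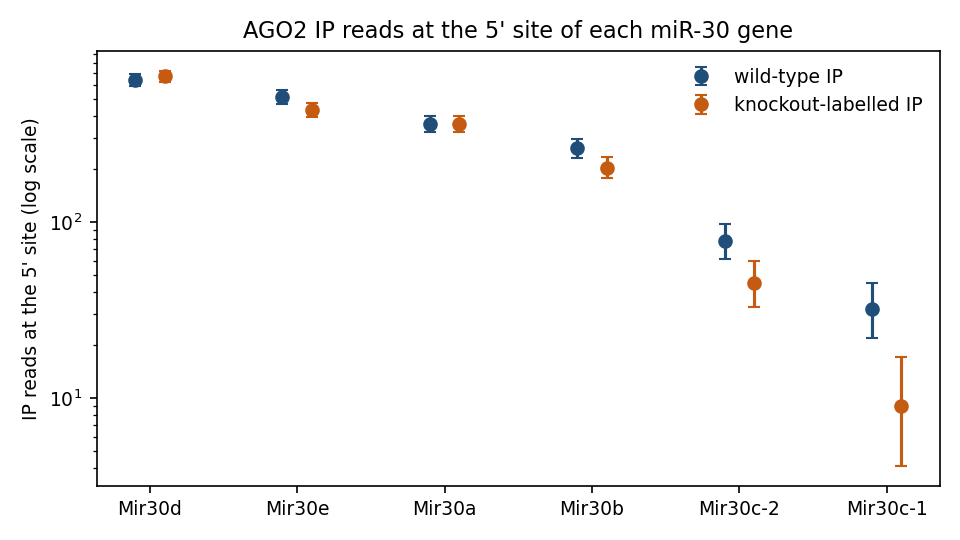
IP reads at the 5′ site of each miR-30 gene (log axis), over the regions of the wild-type file, in the wild-type IP (blue) and the knockout-labelled IP (orange); bars are exact 95% Poisson intervals. Mir30d and Mir30a have near-equal numbers, and Mir30c-1 has 32 against 9.

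The IPs were compared in the authors' deposited table, whose log2 takes wild type over knockout-labelled. There 12 of 14 miR-30 regions had a -log10 p of at least 3 with a log2 of at least 1, where 3.39% of all regions and 67% of the 630 regions at other miRNA genes did. The other 2 are the abutting regions on the 3p arm of Mir30c-1, with 5 reads against 2 and a -log10 p of 1.21. In these libraries the depth of the knockout-labelled IP was 2.28 times that of wild type, so equal numbers of reads correspond to a log2 of 1.19. The table counts 1 more knockout-labelled read than that IP has, which lowers its log2 where reads are few; the reads and intervals given here leave the added read out.

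For Mir30d the authors' deposited table gave a log2 of 1.12 (0.96 to 1.28 from the recovered reads) and Mir30a 1.18 (0.97 to 1.40). Mir30e had 1.43 (1.24 to 1.62) and Mir30b 1.55 (1.29 to 1.83) in the authors' deposited table. The Mir30c genes were highest in the authors' deposited table, Mir30c-2 at 1.95 (1.43 to 2.54) and Mir30c-1 at 2.87 (1.92 to 4.27). As folds these are 2.17 for Mir30d, 2.27 for Mir30a, 2.69 for Mir30e, 2.93 for Mir30b, 3.86 for Mir30c-2 and 7.29 for Mir30c-1. The intervals of Mir30d and Mir30a lie below the median of 1.55 over 306 other miRNA genes in the authors' deposited table, and that of Mir30c-1 lies above it. Those of Mir30b, Mir30e and Mir30c-2 hold it. Relative to the other miRNA genes the family was thus spread on both sides, with a median of 1.49 in the authors' deposited table. The 3p site of Mir30e had 1.45, close to 1.43 on its 5p site, in the authors' deposited table.

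**Figure D4:**
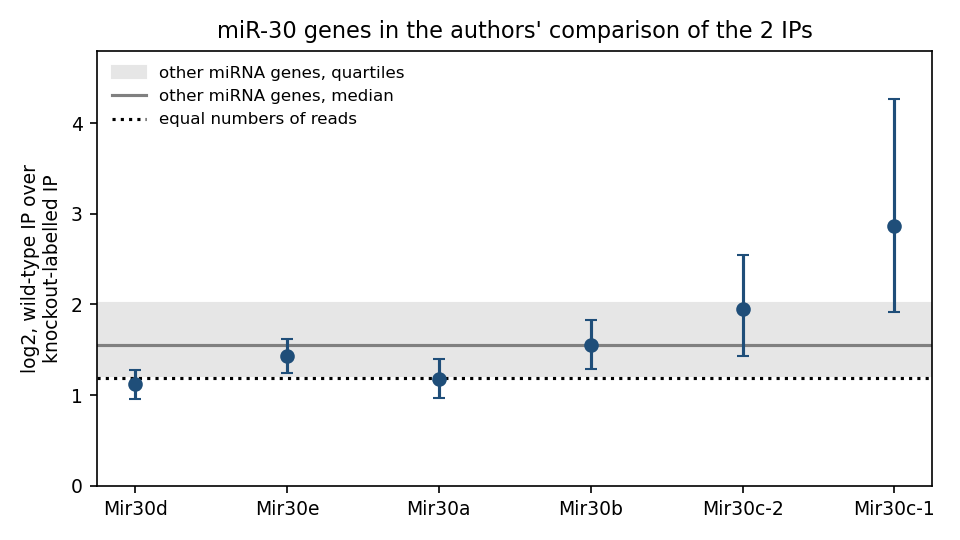
Log2 of wild-type over knockout-labelled IP for the 5′ site of each miR-30 gene (points, with exact 95% binomial intervals from recovered reads); the grey line and band are the median (1.55) and quartiles of other miRNA genes and the dotted line (1.19) is equal numbers of reads. Mir30d and Mir30a lie on the dotted line, and Mir30c-1 is highest at 2.87.

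After these values had been seen, the Mir30c genes were set against the other 4. Together Mir30c-1 and Mir30c-2 had 110 wild-type and 54 knockout-labelled reads, a log2 of 2.21 (1.73 to 2.71). Mir30a, Mir30b, Mir30d and Mir30e together had 1769 and 1663, a log2 of 1.28 (1.18 to 1.37). The difference was 0.94 on the log2 scale (0.44 to 1.44), and it does not depend on how the libraries are scaled. As shares of the family's reads at the 5′ sites, Mir30c-1 made up 1.70% (1.17 to 2.40) in wild type against 0.524% (0.24 to 0.993) in the knockout-labelled library. Mir30c-2 made up 4.15% (3.29 to 5.15) and 2.62% (1.92 to 3.49). The share of Mir30d was 34.0% (31.8 to 36.1) in wild type against 38.96% (36.6 to 41.3) in the knockout-labelled library. Intervals of the libraries do not overlap for Mir30d and Mir30c-1. They overlap for Mir30c-2, Mir30e (27.2% and 25.2%), Mir30a (19.1% and 20.9%) and Mir30b (13.9% and 11.8%).

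Mir30c-1 and Mir30c-2 share their mature sequence, and the same split was then made over all miRNA genes whose wild-type site overlapped a RefSeq mature arm by 15 bases or more. Of those with a log2 of wild type over knockout-labelled for the site, 212 had an arm found at 1 locus of the RefSeq table and 34 an arm found at 2 or more. Genes without such a value were left out, among them Mir16-1, Mir181b-1 and Mir9-2, whose arms lie at 2 or more. The RefSeq table lacks some miRNA genes, such as Mir30b and Mir30d, so a sequence counted at 1 locus may lie at more. In the authors' deposited table the median log2 was 1.49 (quartiles 1.19 and 1.78) at 1 locus and 2.13 (1.34 and 2.50) at 2 or more. The Mir30c genes, at 2.87 and 1.95 in the authors' deposited table, lie above and below the latter median. Sites extended past the arm by a median of 2 bases (quartiles 1 and 3) at 1 locus and 5 (2 and 9) at 2 or more. Mir30a extended by 0, Mir30e by 5, Mir30c-2 by 4 and Mir30c-1 by 11. Without miR-30 and miR-9 genes, the authors' deposited table gave medians of 1.496 over 210 genes and 2.07 over 31. With 20 or more reads in the IPs together the authors' deposited table gave 1.44 over 164 genes and 2.13 over 26. This split was chosen after the data had been seen, and the part that read placement has in it was not tested. Genes entered it through a wild-type site, which can raise the log2 where reads are few. How far that differs between the 2 sets was not tested either.

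**Figure D5:**
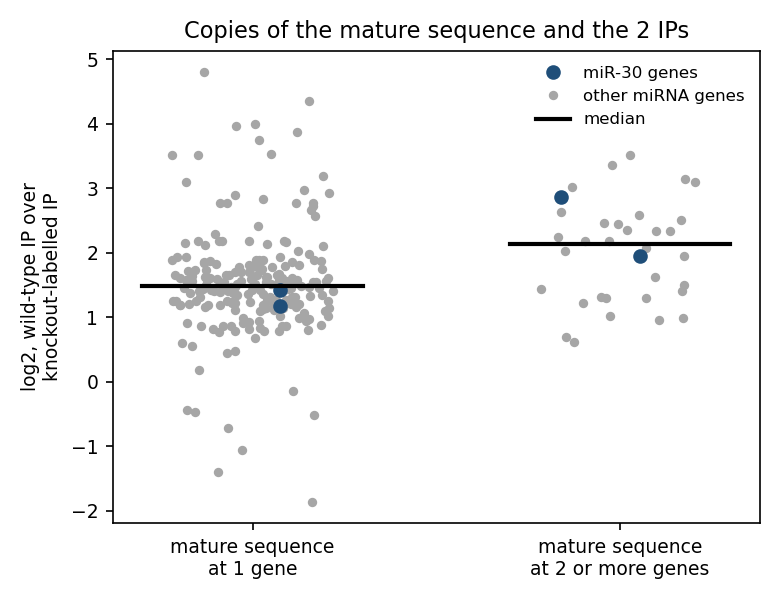
Log2 of wild-type over knockout-labelled IP in the authors' deposited table for miRNA genes, by RefSeq loci of the bound mature sequence. The sequence was found at 1 locus of the RefSeq table (212 genes) or at 2 or more (34). Black bars are the medians of 1.49 and 2.13, and points are spread sideways for legibility. Among miR-30 genes with a RefSeq sequence (blue), Mir30a and Mir30e are on the left and the Mir30c genes on the right.

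The miR-30 seed pairs with TGTTTAC in an mRNA, searched here on the transcript strand within 3′ UTR regions. Of enriched 3′ UTR regions, 90 of 3163 in wild type (2.85%, 2.29 to 3.49) and 39 of 946 in the knockout-labelled library (4.12%, 2.95 to 5.59) held it. Regions that were not enriched held it in 0.915% (0.677 to 1.21) of 5357 and 1.14% (0.940 to 1.37) of 9632. Enriched regions were longer, with medians of 51 against 29 bases in wild type and 71 against 45 in the other, and shares were not adjusted for length.

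Of 20 genes listed as miR-30 targets from general knowledge, 10 had an exonic region in wild type against 13 in the knockout-labelled library. Over all protein-coding genes the numbers were 6381 and 8107, so the second library had more in general. The share these make of all protein-coding genes is not given here, so 10 and 13 of 20 cannot be set against it. An enriched one was found in 7 and 2 of the listed genes, beside 50.1% and 13.3% of all protein-coding genes with an exonic region. The median top log2 over input was 4.62 and 2.64 for the list and 4.25 and 2.52 over all such genes. As higher in wild type, 3 of the 10 passed in the authors' deposited table, beside 7.93% of such genes. The median there was 2.64 for the list and 2.77 over all genes. The 3 were Tnrc6a and the calcineurin genes Ppp3cb and Ppp3r1, named after their values had been seen. Nearly all regions of that table are those of the wild-type file, so genes enter it through wild type. A gene passed by any 1 region, and Tnrc6a had 23, Ppp3cb 11 and Ppp3r1 3. None of the 3 passed by a 3′ UTR region with the seed match. Whether the list differs from all genes was not tested. The best exonic region of Tnrc6a had 185 IP reads against a listed input of 4 in wild type (log2 8.20). In the knockout-labelled library it had 168 against 10 (5.01). In neither library is it the 3′ UTR region of Tnrc6a with the seed match, which is given below. The best wild-type regions of Ppp3cb and Ppp3r1 had 12 and 10 reads, each against a listed input of 1. Over the wild-type region the IPs had 185 and 168 reads at Tnrc6a, a log2 of 1.32, close to equal numbers, by the authors' deposited table. In the same way Ppp3cb had 12 and 3 reads, a log2 of 2.77 by the authors' deposited table. Another region of Ppp3r1 than its best over input had 10 and 1 reads, a log2 of 3.51 by the authors' deposited table.

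Tnrc6a, which encodes a scaffold protein of the silencing complex, was the only listed target with an enriched 3′ UTR region holding the seed match, and it had one in each library. The site is shown with the match in capitals (chr7:123194461-123194486, plus strand).
Tnrc6a: tggcttttaacTGTTTACaataggat
It had 6 IP reads against a listed input of 1 in wild type (log2 5.25) and 12 against 1 in the knockout-labelled library (4.52). Over the wild-type region the IPs had 6 and 12 reads, and the authors' deposited table lists a log2 of 0.07. Neurod1, a transcription factor gene of neuron formation, had a seed match in a wild-type region with 3 reads against 1, and Galnt7, a glycosyltransferase gene, in a knockout-labelled region with 4 against 1. Neither was enriched.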

How the data were processed

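Per the labels' protocols and the submitters' processing notes, the submitters used Cutadapt 1.15 on adapters, STAR 2.6.0c to set aside repeat reads and to align what was left to mm10, removed PCR duplicates, and called clusters in each IP with CLIPper 1.4. Each deposited file lists per region a -log10 p, capped at 400, and a log2 of read density, both from the authors: IP over input, or, in the series table, wild-type over knockout-labelled IP. The making of the series table is not described, and it shares 46799 regions with the wild-type file, which was taken as numerator. Library totals are not used here.

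Reads were recovered because each log2 equals the log2 depth ratio plus that of a whole-number fraction (denominator up to 1000), which held for 99.97% of regions in each IP file and 99.96% in the series table. The multiple was the one whose binomial or Yates-corrected chi-square p met the listed -log10 p within 1%. In 93 of 93 regions listed alike in the knockout-labelled file and the series table, the denominator of the series table was that IP's reads plus 1; the 1 was removed from its reads. Inputs could not be checked in this way and are given as listed. Inputs were 6.34 and 1.92 times as deep as the IPs. Wild-type reads from both tables agreed in 99.9% of 42533 regions; otherwise the higher -log10 p decided. Mir30d and Mir30e are listed at 400 in wild type and took their wild-type reads from the series table. Over all simulated regions, 98.25% (wild type), 83.8% (knockout-labelled) and 96% (series table) of read pairs were recovered. With -log10 p of 3 or more the shares were 99.4% (wild type) and 100% (the other tables). The simulation used the p formula of the recovery itself, so it does not test whether the authors used that formula.

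The region of highest -log10 p, ties by log2, stood for a gene. Intervals are exact binomial or Poisson (Python 3.11.15, scipy 1.17.1, pysam 0.24.0). Named were all members, their hosts, the 5 nearest miRNA genes and listed targets with seed matches. The members and lists were chosen with earlier results of these data known. Of cell type markers, neuronal ones had exonic regions for 6 of 6 genes in each library and progenitor ones for 5 of 5. The numbers were 3 and 4 of 4 for astrocyte, 1 and 4 of 4 for oligodendrocyte and 1 and 2 of 3 for microglial markers. They were 1 and 4 of 4 for endothelial and 2 and 3 of 5 for erythroid markers. Enriched regions were found in 5 and 4 neuronal, 2 and 0 progenitor, 1 and 0 astrocyte and 1 and 1 oligodendrocyte genes. They were found in 1 and 0 microglial, 0 and 0 endothelial and 2 and 1 erythroid genes. Of all protein-coding genes with an exonic region, 50.1% and 13.3% had an enriched one. These counts are a description and do not tell cell types apart.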

Additional observations from a re-analysis of the deposited data

How the results depend on the processing

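Counting abutting regions once left 8 enriched sites in wild type against 7 in the knockout-labelled library. With a -log10 p of at least 5 and a log2 of at least 2 required, 1 region, that of Mir30c-1, was higher in wild type. After subtraction of the median of other miRNA genes, the family median of the wild-type over knockout-labelled log2 turned to -0.065, Mir30a to -0.37, Mir30b to -0.0037, Mir30d to -0.44 and Mir30e to -0.13, while Mir30c-2 (0.40) and Mir30c-1 (1.31) stayed above 0. After subtraction of the median of well-covered regions outside miRNA genes (0.38, 2850 regions), the family median was 1.11. Taking the longest region put Mir30e at 8.06 in wild type and 6.03 in the other library, and the median over regions put Mir30c-1 at 4.99 in wild type. Of 75 alternative values, 57 stayed within counting error or 1.5 times the count. This number is no measure of stability, because counting error over input is wide, as at Mir30a in wild type (8.66 to 16.46). Abutting regions also often repeat a value. The family median over input in the knockout-labelled library counted as unchanged, though it went from 8.97 to 7.32 with the longest region. No paired analysis was possible because each genotype had 1 IP library. Depth limits most the values over input, which rest on listed inputs of 1 or 2, and Mir30c-1.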

Other observations

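Genes of miRNA hairpin processing and its regulators were bound in part. Of 9 such genes, 5 had an exonic region in each library and 2, Dicer1 and Lin28b, had enriched ones in both, beside 50.1% (wild type) and 13.3% (knockout-labelled) of all protein-coding genes with an exonic region. Dicer1, whose product cuts the hairpin to the duplex, had 9 enriched regions in wild type, the best with 16 IP reads against a listed input of 2 (log2 5.66), and 2 in the knockout-labelled library, the best with 25 against 2 (4.58). Lin28b, which encodes an inhibitor of let-7 maturation, had 5 and 3. An enriched 3′ UTR region of Lin28b held the miR-30 seed match in both libraries, with 10 IP reads against a listed input of 1 in wild type (log2 5.99) and 11 against 1 in the other (4.399). The match is in capitals (chr10:45378485-45378510, minus strand).
Lin28b: agtgaaaattcTGTTTACagcacatg
Over the wild-type region the IPs had 10 and 11 reads, which are near-equal numbers. The authors' deposited table lists a log2 of 0.93 there, which counts 1 more knockout-labelled read. The Lin28b site was singled out after its values had been seen.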
